A study of Mus musculus with 23 samples.

Results

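MHC class II genes were followed in bulk RNA-Seq of mouse neutrophils. The members are 7 genes chosen by name, namely Cd74, H2-Aa, H2-Ab1, H2-Eb1, H2-DMa, H2-DMb1 and Ciita, with their levels in these same libraries already known. They are 7 of 21878 genes listed for sorted neutrophils and 7 of 55335 listed for whole lung. The values that chose them come from the comparisons below, so their levels, differences and calls are a description, and counts of members past a threshold stand beside the share of all genes past it and support nothing.

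MHC class II molecules are pairs of an alpha and a beta chain that carry peptides from endosomes to the surface and show them to CD4 T cells. H2-Aa and H2-Ab1 encode the pair called I-A, and H2-Eb1 encodes the beta chain of I-E, which lacks its alpha chain in the H-2b haplotype of C57BL/6 mice. Cd74 is the invariant chain that holds the peptide groove until the complex reaches the endosome, and it is also a surface receptor for the cytokine MIF. H2-DMa and H2-DMb1 form the exchange factor that removes the remnant of the invariant chain, and Ciita is the coactivator on which class II transcription is known to depend in dendritic cells, B cells and macrophages. Resting neutrophils are usually described as having little or no MHC class II.

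The tissue experiment holds neutrophils sorted from lung, peripheral blood (PB) and bone marrow (BM) of WT C57BL/6J mice, with 3 libraries each. The Piezo1 experiment holds lung and PB neutrophils of WT mice and of Piezo1-cKO mice, with 2 libraries each. In Piezo1-cKO mice a Vav1-iCre transgene, which is active in all hematopoietic cells, removes a floxed part of Piezo1, so that every leukocyte is affected and not only neutrophils. The third experiment holds whole lungs, 3 labelled wt (controls) and 3 labelled pmn deletion, and the study's methods describe depletion by an antibody to Ly6G, with an isotype antibody as the control. The study's methods give adult mice of both sexes in general, without an age for the whole-lung experiment, and the sort took CD45+CD11b+Ly6G+ cells. For tissue processing in general they describe enzyme digestion of lung and none for PB or BM. Tissue and handling therefore cannot be told apart in comparisons of lung with PB or BM. The labels do not say whether replicate libraries came from separate mice, though a figure legend of the paper gives 3 mice for the tissue experiment. Every standard error measures only the spread between these libraries.

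Reads per gene could be recovered for all 17 libraries of sorted neutrophils, which hold 9621120 to 19330802 reads each. PB replicate 3 stood apart from the other PB libraries, with a chi-square of 26.3 and 44.0 per gene against them, while the other pairs of replicates gave 1.95 to 5.09. Piezo1 itself had 3 to 10 reads in each library of the Piezo1 experiment, WT and Piezo1-cKO alike, and reads over the whole gene include exons that the deletion leaves, so this total does not check the genotype. All 8 neutrophil markers, among them S100a8, S100a9 and Ly6g, were above 1 FPKM in all sorted groups.

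Of the members, H2-Ab1 and Ciita had no promoter matched by symbol in RefSeq (GRCm38.p6), and Cd74 was left out of the promoter search. Promoter sequence was read for 4 members, taking 250 bases before to 50 after each start. It is shown because class II promoters are known for an X box, bound by the RFX complex, followed by a Y box, bound by NF-Y, and CIITA works through both. The letters searched were GCAAC, a core of many X boxes, and ATTGG, the Y box core, each on both strands. The stretches below run 5′ to 3′ on the strand of the gene with these letters in capitals, and lie on chr17:34287852-34287916 (minus strand) for H2-Aa, chr17:34305763-34305827 (plus strand) for H2-Eb1 and chr17:34153085-34153149 (plus strand) for H2-DMb1.
H2-Aa: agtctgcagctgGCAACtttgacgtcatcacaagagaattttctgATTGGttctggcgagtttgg
H2-Eb1: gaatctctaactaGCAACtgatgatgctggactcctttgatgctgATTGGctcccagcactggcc
H2-DMb1: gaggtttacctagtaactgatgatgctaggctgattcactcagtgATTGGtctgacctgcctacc

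ATTGG begins 48 bases before the start of H2-Aa, 59 before that of H2-Eb1 and 61 before that of H2-DMb1. GCAAC precedes it by 28 bases in H2-Aa and by 27 in H2-Eb1. GCAAC followed by ATTGG at 20 to 40 bases occurs in 332 of 32851 promoters of the same length, or 1.01%, whereas ATTGG alone is found in 37.4% and GCAAC alone in 35.2%. The H2-DMb1 promoter does not hold GCAAC, but it shares an unbroken run of 13 bases, aactgatgatgct, with that of H2-Eb1, which is found in 3 of 32851 promoters. H2-DMa has 2 listed starts, the upstream one with GCAAC and the other with ATTGG, and neither holds the pair. These matches describe the letters in this window and say nothing of binding in neutrophils.

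The H2 members lie together on chromosome 17, H2-Ab1 at chr17:34263227-34269418, H2-Aa at chr17:34282744-34287823, H2-Eb1 at chr17:34305867-34316674, H2-DMa at chr17:34119693-34139101 and H2-DMb1 at chr17:34153191-34160229. Cd74 lies at chr18:60803849-60812652 and Ciita at chr16:10480014-10531064. The gene model behind H2-DMa is 6798 bases long and overlaps the neighbouring gene Brd2 by 3122 bases, which can lower its value in FPKM (fragments per kilobase of gene, scaled to the fragments of the library). H2-DMb1 has a close copy, H2-DMb2, and reads that match both may be missing from either.

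The first question was which class II genes neutrophils carry in each tissue. Lung neutrophils held transcripts for the invariant chain and for 3 class II chains, and PB neutrophils held the invariant chain with almost no chain transcript. Cd74, the invariant chain, stood at 70.1, 74.6 and 76.4 FPKM in lung, at 10.7, 10.9 and 16.0 in PB and at 4.60, 5.19 and 5.92 in BM. No library of one tissue overlapped with another, which also held for 86.2% of all genes tested in lung against PB, 92.9% in lung against BM and 76.8% in PB against BM. PB replicate 3 is the highest of the PB libraries.

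H2-Aa, the I-A alpha chain, stood at 43.3, 37.6 and 43.5 FPKM in lung and at 1.32, 1.65 and 1.78 in BM. In PB it had 0, 1 and 0 reads, against 690 to 793 reads in each lung library. H2-Ab1, its beta partner, stood at 25.5, 27.3 and 27.2 FPKM in lung and at 1.92, 1.17 and 1.64 in BM, with 2, 0 and 1 reads in PB. All lung libraries lie above all BM libraries, and those above all PB libraries, for both chains of I-A.

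H2-Eb1, the I-E beta chain, stood at 34.3, 37.5 and 38.5 FPKM in lung, at 0.169, 0.130 and 0.161 in PB and at 0.874, 0.744 and 0.620 in BM. The order lung, BM, PB is the same as for I-A and differs from that of Cd74, for which PB lies above BM. In bulk RNA a smaller number of cells with a transcript and less of it per cell cannot be told apart.

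The remaining members, the exchange factor and the coactivator, were near the limit of detection in lung and PB. H2-DMb1 stood at 0.182, 0.454 and 0.142 FPKM in lung, at 0.132, 0.381 and 0.209 in PB and at 2.15, 2.26 and 2.12 in BM. H2-DMa stood at 0.223, 0.103 and 0.160 FPKM in lung, 0.158, 0.136 and 0.166 in PB and 0.383, 0.495 and 0.312 in BM. For both, lung and PB overlap and BM lies above both. Ciita had 1, 2 and 1 reads in lung, 1, 0 and 0 in PB and 3, 0 and 4 in BM, at or within a few reads of the 3 that a count of 0 allows, so no order of tissues was detectable at this depth.

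**Figure D1:**
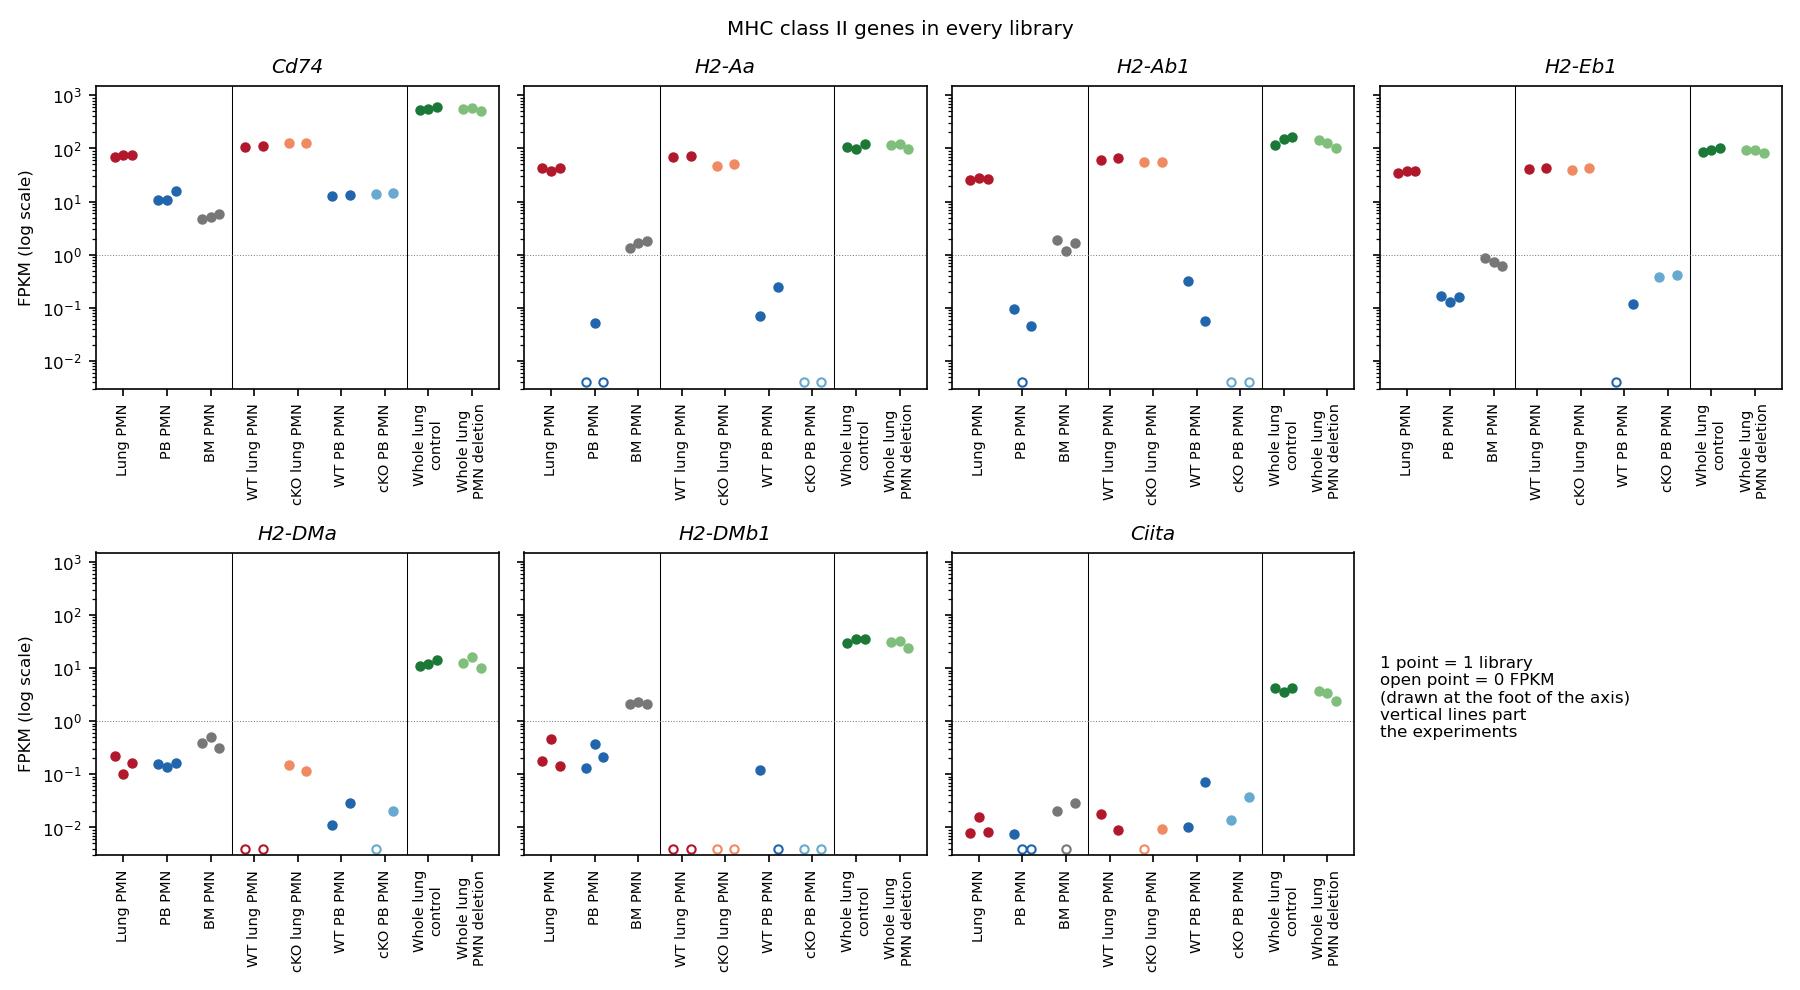
FPKM (log scale) of the 7 MHC class II genes in every library, 1 point per library, with open points for 0 FPKM and vertical lines between the 3 experiments. Cd74 is above 4 FPKM in all groups, the 3 class II chains are above 25 FPKM in lung neutrophils and below 1 in PB neutrophils, and Ciita is below 0.1 FPKM in all sorted neutrophils and above 2 in whole lung.

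Within lung neutrophils the order of mean levels was Cd74 at 73.7 FPKM ± 3.28 (SD, n = 3), H2-Aa at 41.5 ± 3.33, H2-Eb1 at 36.7 ± 2.18, H2-Ab1 at 26.7 ± 1.02, H2-DMb1 at 0.259 ± 0.170, H2-DMa at 0.162 ± 0.0601 and Ciita at 0.0105 ± 0.00439. H2-Eb1 in its highest library overlaps H2-Aa in its lowest, and H2-DMb1 overlaps H2-DMa, whereas the other neighbours in this order do not overlap. H2-DMb1 amounted to 0.326 to 1.21 FPKM per 100 FPKM of H2-Aa in lung neutrophils, against 119 to 163 in BM neutrophils and 27.6 to 35.4 in control whole lung. Ciita amounted to 0.0179 to 0.0413 per 100 of H2-Aa in lung neutrophils and to 3.46 to 4.02 in control whole lung. Sorted lung neutrophils therefore had chain transcripts in proportions to H2-DMb1 and Ciita unlike those of the whole organ, with the caution that the tables for sorted cells and whole lung were made separately and with different gene models.

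Of the 7 members, 4 passed the filter on low values for lung against PB (at least 1 FPKM in at least 3 libraries), the 3 chains through their lung libraries alone and Cd74 through PB libraries too. Those 4 were past the threshold (adjusted p below 0.05 by limma and a log2 fold change over 1), all higher in lung, beside 7.75% of the 7577 genes tested. Another 19.5% of genes were lower. On the scale of log2(FPKM + 1) the differences were 2.49 ± 0.14 (SE, n = 3 per group) for Cd74, 5.38 ± 0.08 for H2-Aa, 4.72 ± 0.07 for H2-Ab1 and 5.03 ± 0.07 for H2-Eb1. The median of the 4 was 4.88, and that of all genes tested was -0.54. Without PB replicate 3 the Cd74 difference was 2.66. Without any 1 lung library only Cd74 passed the filter, which asks for 3 libraries, and it was called.

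Counted in reads and scaled to depth, the lung to PB ratio was 5.87 for Cd74 (95% exact interval 5.49 to 6.30). For H2-Aa it was 2423 (434 to 95747) from 2250 reads against 1, for H2-Ab1 580 (198 to 2814) from 1615 against 3, and for H2-Eb1 240 (143 to 439) from 3114 against 14. The intervals, which cover counting error only, place the chains far above Cd74 in the size of the difference, with a wide interval for H2-Aa. H2-DMa gave a ratio of 1.06 (0.718 to 1.56) and H2-DMb1 1.08 (0.517 to 2.24).

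Against BM, 5 members passed the filter. Cd74 (3.59 ± 0.07), H2-Aa (4.04 ± 0.08), H2-Ab1 (3.43 ± 0.10) and H2-Eb1 (4.44 ± 0.07) were higher in lung, where 9.86% of 8236 genes were, and H2-DMb1 (-1.34 ± 0.10) was lower, where 36.0% of genes were. The exchange factor and the chains thus lay on opposite sides of 0 in this comparison. Rescaling the libraries by median ratios put H2-DMb1 at -0.97, short of the threshold, whereas edgeR TMM (-2.24) and DESeq2 (-2.21) on the reads called it.

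From BM to PB the 4 members that passed the filter were split. Cd74 was higher in PB by 1.10 ± 0.15, as were 7.85% of 8237 genes, and without PB replicate 3 it was higher by 0.92, short of the threshold. H2-Aa (-1.34 ± 0.09), H2-Ab1 (-1.29 ± 0.11) and H2-DMb1 (-1.36 ± 0.09) were lower in PB, as were 14.1% of genes. The added 1 FPKM makes these 3 values look alike, and with 0.1 they were -3.86, -3.54 and -2.81. In reads scaled to depth the PB to BM ratio was 0.0108 for H2-Aa (95% exact interval 0.000271 to 0.0618), 0.0292 for H2-Ab1 (0.00592 to 0.0875) and 0.111 for H2-DMb1 (0.0632 to 0.184). BM libraries also held C1qa, C1qb and C1qc, complement genes that mark macrophages, at 1 FPKM or more, along with Mrc1 and Ear2. Their part in the BM values was not tested.

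The choice of scaling matters for all comparisons with lung. Median-ratio rescaling moved the median of all genes by 0.53 on the log2 scale for lung against PB and by 0.68 for lung against BM, and the share of called genes that were higher in lung went from 28.5% to 67.5% and from 21.5% to 57.8%. Relative to those medians the 4 higher members were still higher, with calls in every scaling tried.

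Cells other than neutrophils are rich in MHC class II, so their markers were read in the same lung libraries. Of 9 B cell markers in the table, 8 were below 1 FPKM in all 3 lung libraries and Cd79a, Pax5 and Ebf1 were at 0. The exception was Bank1, at a level found in all sorted groups, and the summed level of the list was 2.29 to 2.54 FPKM in lung and 3.12 to 3.53 in PB. Of 10 dendritic cell markers, 9 were below 1 FPKM with Xcr1 and Siglech at 0, and the exception was the integrin Itgax, which carried nearly all of a summed level of 56.1 to 59.7 in lung and 48.4 to 68.5 in PB. Of 10 macrophage markers, 7 were below 1 FPKM in every lung library, and C1qb, Adgre1 and Csf1r reached it, with a sum of 125 to 129 in lung and 156 to 173 in PB, carried by Adgre1 and Csf1r.

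Of 6 monocyte markers, 4 were below 1 FPKM, and Ly6c2 and Csf1r carried a sum of 159 to 165 in lung and 225 to 272 in PB. T cell markers summed to 2.96 to 3.10 in lung and 4.60 to 5.47 in PB, NK cell markers to at most 0.197 and 0.208, platelet markers to 2.52 to 3.07 and 1.32 to 2.63, epithelial markers to 5.38 to 6.38 and 13.9 to 24.1, and endothelial markers to 2.31 and 2.58 to 3.01. Single markers were also higher in lung than in PB. Scgb1a1, an airway epithelial gene, had 4 to 11 reads in each lung library and 0 in PB and BM, the platelet gene Ppbp had 12 to 19 and 0, and the macrophage gene C1qb had 8 to 20 in lung and at most 1 in PB, with 79 to 134 in BM. In WT mice of the Piezo1 experiment Scgb1a1 had 35 and 39 reads in lung and 0 in PB. The part of such cells in the class II values was not tested.

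Set against control whole lung, H2-Eb1 in lung neutrophils reached 39.5% of the whole-lung level, H2-Aa 38.1%, H2-Ab1 18.7% and Cd74 12.9%. H2-DMa reached 1.32%, H2-DMb1 0.779% and Ciita 0.260%. The B cell genes Cd79a (0%) and Cd79b (0.0479%) were lower than any class II chain on this measure, as were the dendritic cell genes Xcr1 (0%), Cd209a (0.339%) and Zbtb46 (1.37%), the macrophage genes Mertk (0.0341%), Marco (0.234%) and C1qa (2.05%), and the epithelial gene Sftpc (0.00512%). Other markers were as high as the chains or higher on this measure, among them Itgax (326%), Csf1r (346%), Adgre1 (230%), Bank1 (110%), the T cell gene Cd3d (37.7%) and the dendritic cell gene Batf3 (35.8%), while Clec9a reached 9.46% and Flt3 6.08%. These percentages cross tables that were normalized separately.

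**Figure D2:**
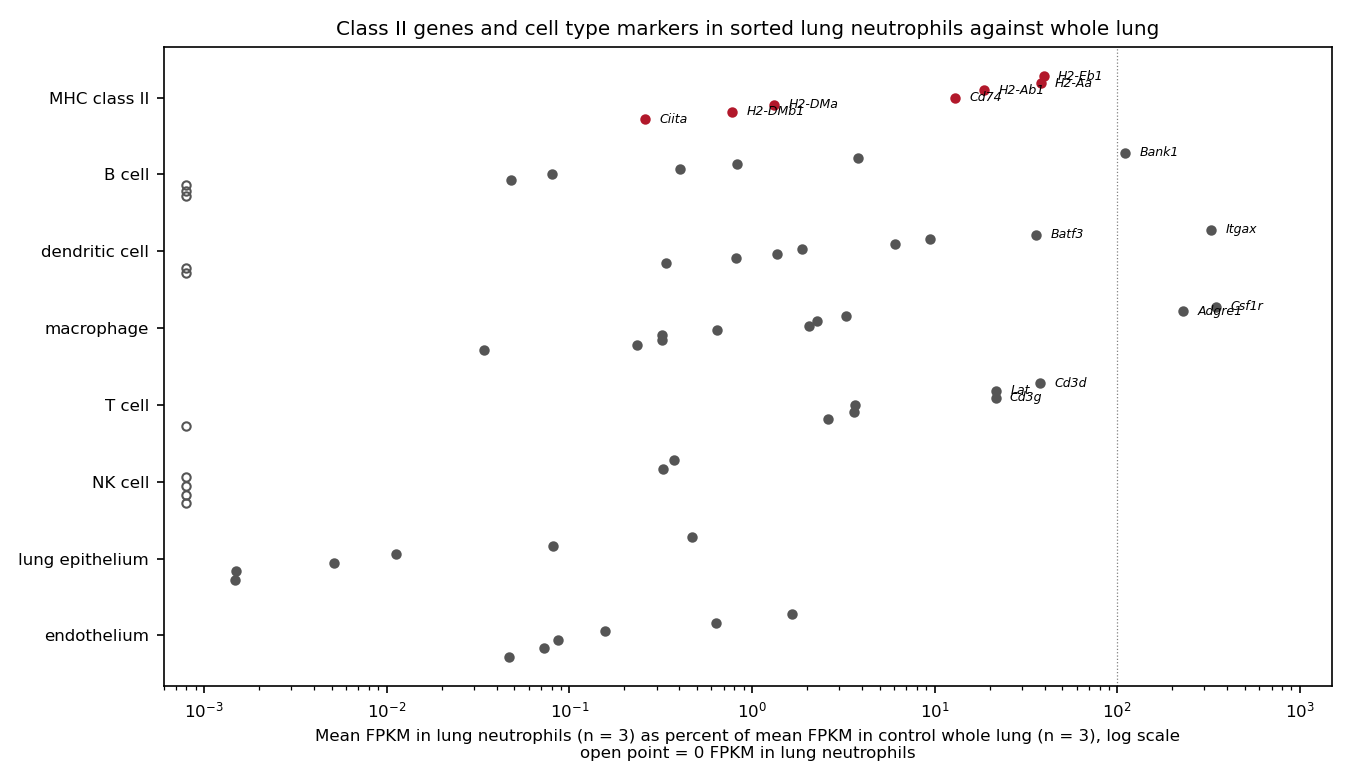
Mean FPKM in sorted lung neutrophils (n = 3) as percent of the mean in control whole lung (n = 3), log scale, 1 point per gene, in rows by gene list. The 3 class II chains and Cd74 lie between 12.9% and 39.5%, H2-DMa, H2-DMb1 and Ciita between 0.260% and 1.32%, and marker genes are named where they exceed 10%, such as Itgax, Csf1r and Adgre1.

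Ranked by the lower of 2 correlations, the genes most like Cd74 were not the class II chains. Likeness was the Pearson r of log2(FPKM + 1) with Cd74, taken over the 9 tissue libraries and over the 8 Piezo1 libraries, and the lower of the 2 values ranked 7182 genes. Among the first 10 were Sqstm1 (0.996), Hdc (0.995), Nfe2l2 (0.995), C5ar1 (0.995), Plek (0.995), Tgm2 (0.994), Tgif1 (0.994), Rnf19b (0.994) and Ndel1 (0.994). H2-Eb1 was at rank 426 (0.910), H2-Aa at rank 560 (0.850) and H2-Ab1 at rank 587 (0.835). Those lower values came from the tissue libraries. Over the 8 Piezo1 libraries alone the r was 0.998 for H2-Eb1, 0.993 for H2-Aa and 0.995 for H2-Ab1, beside 0.996 for Sqstm1. The points of each r share a group structure of tissues, and 457 genes had a lower value of at least 0.9. These values therefore only describe a shared order, lung above PB above BM in the tissue libraries and lung above PB in the Piezo1 libraries.

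The class II pathway was then read through lists of its other genes, which were written with earlier results of these data known. In lung against PB, 7.75% of all 7577 genes rose and 19.5% fell by limma, and 932 and 448 did after median-ratio rescaling. Of 6 tested genes on the list called costimulation, 4 rose in lung and 0 fell, with a list median of 2.20 beside -0.54 for all genes, and 5 rose after median-ratio rescaling and with edgeR or DESeq2. The 4 were Cd80, Cd83 and the ligands of the inhibitory receptor PD-1, Cd274 and Pdcd1lg2, so the list mixes costimulatory and inhibitory ligands. Cd80, a ligand of CD28 and CTLA4, rose from 14.5 FPKM ± 2.23 in PB to 113 ± 2.61 in lung (log2 difference 2.89 ± 0.10, adjusted p = 9.1e-08 by limma). Cd274, which encodes PD-L1, rose from 30.6 ± 2.69 to 239 ± 6.64 FPKM (2.93 ± 0.07, adjusted p = 1.5e-08 by limma). Cd83, a surface protein known to stabilise MHC class II, was at 4.72 ± 0.273 FPKM in lung and had 1 read in the 3 PB libraries (2.502 ± 0.08), and it is named here after its values were seen. Cd86 stood at 4.88 ± 0.251 FPKM in lung and 5.96 ± 0.740 in PB, and was not called.

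Among 11 endosomal processing genes 0 rose and 2 fell in lung against PB by limma, but after median-ratio rescaling, and with edgeR and DESeq2 on the reads, 3 rose (Ctsl, Ctsz and Lgmn) and 1 fell. Marchf1, a ubiquitin ligase known to send MHC class II and CD86 for degradation, fell from 32.3 FPKM ± 2.43 in PB to 5.26 ± 0.240 in lung (-2.41 ± 0.07, adjusted p = 4.1e-08 by limma), and it fell under median-ratio rescaling too (-1.82 ± 0.08). Ctsd, a lysosomal protease, fell by 1.118 on the log2 scale, and under rescaling it was at -0.48 and not called. Ctss, the protease known for cleaving the invariant chain, stood at 48.3 ± 1.37 FPKM in lung, 57.0 ± 2.74 in PB and 13.8 ± 0.881 in BM, and rose in lung over BM (1.74 ± 0.05, adjusted p = 2.3e-10 by limma).

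Of 15 tested regulators of class II transcription, 1 rose and 3 fell in lung against PB. Rfx5, the DNA-binding subunit of the RFX complex, rose from 0.527 FPKM ± 0.120 to 2.62 ± 0.175 (1.25 ± 0.09). Irf1 (-1.59 ± 0.05), known as a mediator of interferon gamma signals, and Rfxap (-1.07 ± 0.10), a subunit of the RFX complex, were among those that fell. After median-ratio rescaling 0 of the 15 fell, with Irf1 at -0.95 and Rfxap at -0.53, and 2 genes, Rfx5 and Jak2, rose there.

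Of the 5 genes listed as CD74 and MIF partners, Ddt, a homologue of MIF, rose (1.30 ± 0.16) and Cxcr2 fell (-1.95 ± 0.05), whereas Mif stood at 17.4 FPKM ± 2.85 in lung and 13.9 ± 1.16 in PB. Of 20 class I presentation genes 3 rose and 1 fell, against 5 and 0 after rescaling, and those that rose were H2-Q4, H2-Q6 and H2-Q7, close copies of each other whose reads may be divided among them. None of the 5 class II relatives (H2-DMb2, H2-Oa, H2-Ob, H2-Eb2 and H2-Ea) passed the filter for lung against PB. H2-DMb2 fell in lung against BM (-2.14 ± 0.15), on the same side as H2-DMb1.

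In lung against BM, 4 of 6 costimulation genes, 4 of 11 endosomal genes, 3 of 5 partners of CD74, 2 of 15 regulators and 5 of 20 class I genes rose by limma, while 0, 3, 1, 2 and 1 fell. Of all 8236 genes tested, 9.86% rose and 36.0% fell. After median-ratio rescaling 6, 6, 4, 3 and 8 rose and 0 fell in any of the 5 lists, where 1587 of all genes rose and 1158 fell. Ctsl (1.82 ± 0.09), Ctsz (1.64 ± 0.04) and Mif (1.73 ± 0.10) were among the rises, and Marchf1 (-1.33 ± 0.05) and Nfyb (-1.25 ± 0.08) among the falls, of which neither passed the threshold after rescaling. In PB against BM, 2 of 4 costimulation genes, 3 of 11 endosomal genes, 3 of 5 partners, 3 of 15 regulators and 2 of 20 class I genes rose by limma, and 0 of any of them fell. Of all 8237 genes, 7.85% rose and 14.1% fell. By edgeR and DESeq2 Rfx5 fell there, and 6 to 8 class I genes rose, where 955 to 970 of all genes rose and 1448 to 1468 fell. Marchf1 (1.08 ± 0.07) and Irf1 (1.71 ± 0.05) rose there, which is opposite to their difference between lung and PB.

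The second question was whether the WT libraries of the Piezo1 experiment, made apart from the tissue experiment, showed the same pattern. There Cd74 stood at 109 and 113 FPKM in lung and 12.5 and 13.4 in PB. H2-Aa stood at 70.4 and 71.7 FPKM in lung with 1 and 4 reads in PB, H2-Ab1 at 61.9 and 65.0 FPKM with 5 and 1 reads, and H2-Eb1 at 40.9 and 43.7 FPKM with 0 and 3 reads. As before, lung and PB did not overlap for any of the 4, nor did they for 94.5% of all genes tested. H2-DMa and H2-DMb1 had 0 reads in both WT lung libraries, and Ciita had 2 and 1.

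The same 4 members passed the filter and the threshold, all higher in lung, as were 7.50% of 7143 genes, while 26.5% were lower. The log2 differences were 3.00 ± 0.05 for Cd74, 5.96 ± 0.09 for H2-Aa, 5.77 ± 0.11 for H2-Ab1 and 5.35 ± 0.09 for H2-Eb1. H2-Ab1 amounted to 87.8 to 90.5 FPKM per 100 of H2-Aa here and to 58.9 to 72.6 in lung neutrophils of the tissue experiment, so the proportion of the I-A chains was not the same in the 2 sets of libraries. Of the lists, 4 of 6 costimulation genes rose and 0 fell, with Cd83 at 13.6 ± 0.753 FPKM in lung and 1 read in PB (3.84 ± 0.09, adjusted p = 3.1e-08 by limma). Of 11 endosomal genes 2 rose (Ctsl and Lgmn) and 2 fell (Ctsd and Marchf1). Marchf1 was at 7.03 ± 0.477 FPKM in lung and 30.1 ± 0.394 in PB (-1.96 ± 0.06, adjusted p = 1.6e-07 by limma). Of 13 regulators 0 rose and 4 fell, of 5 partners 0 rose and 1 fell, and of 20 class I genes 0 rose and 3 fell by limma. After median-ratio rescaling 1 regulator, 2 partners and 2 class I genes rose, and 1, 1 and 0 fell, so that the balance of these lists rests on the scaling, and of the endosomal genes 3 rose and 1 fell. Of all 7143 genes, 940 rose and 632 fell after that rescaling.

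**Figure D3:**
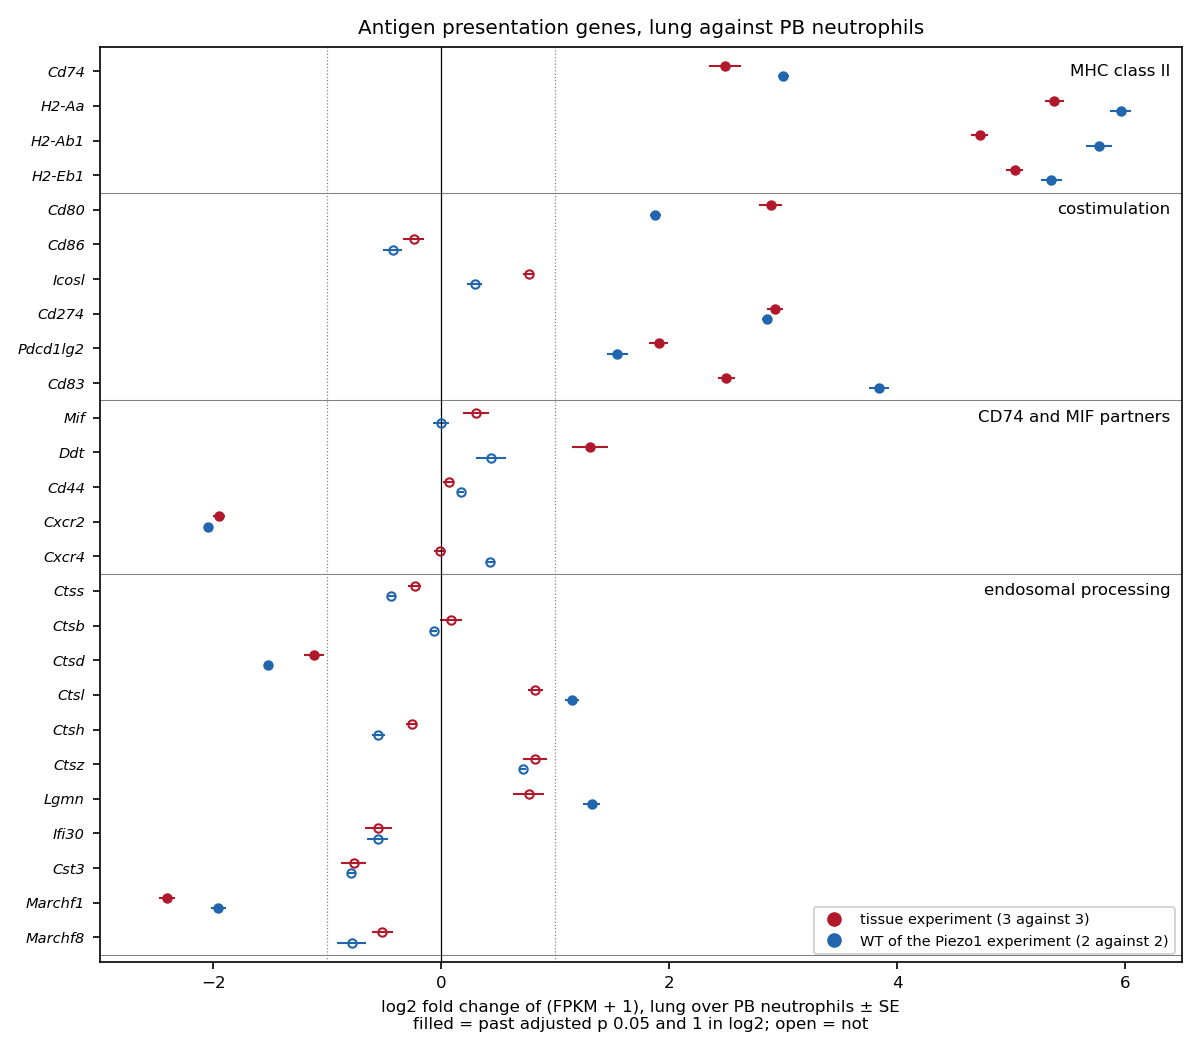
Log2 fold change of FPKM + 1, lung over PB neutrophils, ± SE, for class II members and genes of 3 lists, in the tissue experiment (red, 3 libraries against 3) and in WT mice of the Piezo1 experiment (blue, 2 against 2), with filled points past the threshold. The 4 members lie between 2.49 and 5.96, Cd80, Cd274, Pdcd1lg2 and Cd83 lie to the right of 1 in both experiments, and Marchf1 and Cxcr2 lie to the left of -1 in both.

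The third question was whether the genes differ between Piezo1-cKO and WT neutrophils. In lung Cd74 stood at 125 and 125 FPKM in Piezo1-cKO against 109 and 113 in WT, H2-Aa at 46.6 and 50.3 against 70.4 and 71.7, H2-Ab1 at 54.9 and 56.0 against 61.9 and 65.0, and H2-Eb1 at 39.5 and 42.3 against 40.9 and 43.7. The genotypes overlap only for H2-Eb1 among these 4, and they do not overlap for 76.6% of all genes tested. H2-Aa was lower by the widest margin, and H2-Ab1 was lower too. Cd74 was the one member of the 4 that was higher in FPKM, and H2-Eb1 was close to WT.

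None of the 4 members that passed the filter was called by limma, beside 0.793% of 6434 genes called higher and 0.202% called lower. The log2 differences were 0.17 ± 0.03 for Cd74, -0.54 ± 0.05 for H2-Aa, -0.19 ± 0.04 for H2-Ab1 and -0.05 ± 0.05 for H2-Eb1, so all are under the fold threshold. At an unadjusted p below 0.05 3 of the 4 passed, as did 57.4% of all genes, and on the adjusted p alone 3 passed, as did 50.7%, while edgeR and DESeq2 on the recovered reads called 0. The median of all genes was 0.09 on this scale, and after median-ratio rescaling the 4 differences were 0.06, -0.65, -0.30 and -0.16.

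Ratios within a library do not depend on its scale. H2-Ab1 amounted to 111 to 118 FPKM per 100 of H2-Aa in Piezo1-cKO lung neutrophils and to 87.8 to 90.5 in WT, H2-Eb1 to 84.0 to 84.6 against 58.1 to 60.9, and Cd74 to 248 to 269 against 155 to 157. The genotypes do not overlap in any of the 3 ratios, which share H2-Aa as their denominator and so are not separate observations. No such share was taken over other ratios, and single genes do not overlap for 76.6% of all genes tested. H2-DMa had 15 and 11 reads in Piezo1-cKO lung and 0 and 0 in WT, H2-DMb1 had 0 in all 4 libraries, and Ciita had 0 and 1 in Piezo1-cKO. Of the lists, 0 of 6 costimulation genes, 0 of 11 endosomal genes, 0 of 5 partners, 0 of 13 regulators and 0 of 20 class I genes were called by limma in lung, where 4, 8, 3, 6 and 14 had an unadjusted p below 0.05, shares to be read against the 57.4% of all genes. By edgeR and DESeq2 Marchf8 was called higher and Pdcd1lg2 lower, where 199 to 219 of all 6434 genes were called higher and 112 to 126 lower. Dendritic cell markers in lung summed to 8.66 to 10.1 FPKM in WT and 11.57 to 11.97 in Piezo1-cKO, B cell markers to 1.72 to 1.86 and 2.22 to 2.64, and macrophage markers to 120 to 122 and 152 to 153. Most of these sums came from Itgax (mean 8.13 in WT and 10.2 in Piezo1-cKO), Bank1 (1.57 and 2.01), Csf1r (89.0 and 113) and Adgre1 (31.7 and 36.5). The macrophage gene Ear2 was also higher (0.233 and 2.64), while C1qa, Mertk and Mrc1 were at 0 in both genotypes. The part of such cells in the genotype differences was not tested.

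In PB only Cd74 passed the filter, at 14.1 and 14.2 FPKM in Piezo1-cKO and 12.5 and 13.4 in WT (0.12 ± 0.07), and it was not called by limma, edgeR or DESeq2, nor did it have an unadjusted p below 0.05, which 56.9% of genes had. Its WT and Piezo1-cKO libraries did not overlap, which held for 77.3% of genes. In that comparison 1.68% of 7256 genes were called higher and 1.97% lower. H2-Aa and H2-Ab1 had 0 reads in both Piezo1-cKO PB libraries, and H2-Eb1 had 6 and 10. H2-DMa had 0 and 2 reads, H2-DMb1 had 0 and 0, and Ciita had 1 and 4. Erythroid transcripts summed to 1011 to 1136 FPKM in Piezo1-cKO PB and to 24.8 to 26.7 in WT PB, a difference whose part in these values was not tested. Of the lists, Ddt and H2-M3 fell in Piezo1-cKO PB and 0 genes rose by limma, while edgeR and DESeq2 also called Marchf8 lower, and edgeR RLE and DESeq2 called Cd86 higher. By edgeR and DESeq2 317 to 335 of all 7256 genes were called higher and 372 to 403 lower.

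The genotype difference in lung less that in PB was -0.45 ± 0.12 for H2-Eb1, the one of 4 tested members called, on the adjusted p alone. By that rule 29.7% of 7560 genes were called higher and 18.5% lower, so a call is common in this comparison, and without WT lung replicate 2 or Piezo1-cKO lung replicate 1 no member was called (-0.40 for H2-Eb1 in both). It was 0.05 ± 0.07 for Cd74, -0.33 ± 0.12 for H2-Aa and 0.05 ± 0.14 for H2-Ab1. The PB side of these values rests on 0 to 10 reads per library for the 3 chains, and the sign for H2-Aa turned with a pseudocount of 0.1 (0.74) and with edgeR on the reads (3.42).

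**Figure D4:**
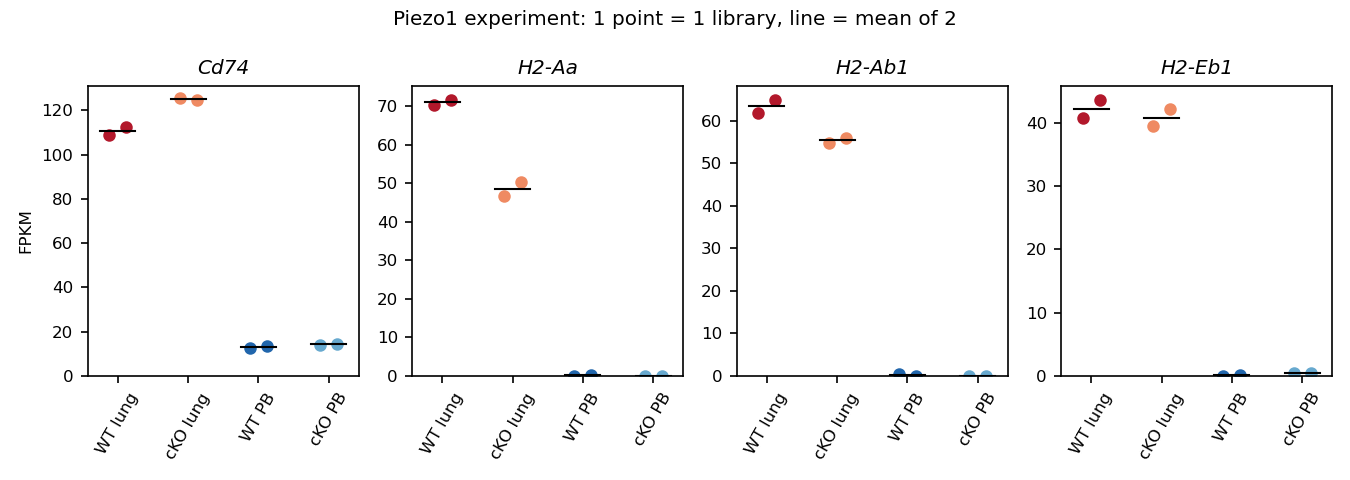
FPKM of Cd74 and the 3 class II chains in the Piezo1 experiment, 1 point per library with a line at the mean of 2, on axes that start at 0. H2-Aa is 46.6 and 50.3 in Piezo1-cKO lung neutrophils against 70.4 and 71.7 in WT, and the 3 chains are below 0.5 FPKM in PB of both genotypes.

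The last question was what became of the members in whole lung after neutrophil depletion. Cd74 stood at 536, 563 and 614 FPKM in controls and 556, 572 and 504 after depletion, H2-Aa at 106, 97.9 and 123 against 116, 121 and 97.4, and H2-Ab1 at 116, 148 and 163 against 144, 126 and 102. H2-Eb1 stood at 84.3, 91.7 and 103 against 93.6, 92.3 and 81.6, H2-DMa at 10.9, 11.9 and 14.05 against 12.2, 16.3 and 10.1, H2-DMb1 at 29.2, 34.6 and 35.9 against 31.1, 33.1 and 24.1, and Ciita at 4.26, 3.53 and 4.24 against 3.77, 3.34 and 2.42. The groups overlap for all 7 members, and do not overlap for 17.4% of all genes. All 7 passed the filter, and their log2 differences ranged from -0.27 ± 0.14 for Ciita to 0.04 ± 0.17 for H2-DMa, with a median of -0.07 beside -0.04 for all genes.

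By limma 0 of the 7 were called, at an adjusted p below 0.05 and a log2 change over 0.5, and 0 had an unadjusted p below 0.05, which 11.2% of all genes had. Among all 13990 genes 0% were called higher and 0.00715% lower, the latter being Aqp5, a water channel of lung epithelium (-1.51 ± 0.10, adjusted p = 0.021 by limma), named after its values were seen. The neutrophil marker S100a8 was at 37.1 FPKM ± 3.57 in controls and 13.8 ± 6.71 after depletion, a difference that the same test did not call (adjusted p = 0.19 by limma). Summed neutrophil markers were 211 to 269 FPKM in controls and 43.4 to 123 after depletion, and summed B cell markers 381 to 402 and 239 to 299, and summed T cell markers 25.4 to 28.8 and 17.8 to 24.9, so these 3 lists did not overlap between the groups. The sums of the dendritic cell, macrophage, monocyte, NK cell, erythroid, platelet, epithelial and endothelial lists overlapped. Single genes did not overlap for 17.4% of all genes tested.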

How the data were processed

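FPKM per gene and library, the unit of every level given here, were deposited by the authors. Behind them are paired-end reads trimmed by fastp, HISAT2 alignment against mm10, and HTSeq-count totals per gene. Versions are not given in the sources used here, and the deposited labels name a SMARTER kit where the paper's methods name VAHTS Universal V6. The Piezo1 tables also hold, as deposited by the authors, a signal per group (the mean of size-factor scaled counts), used only to fix the number of reads, and the authors' own fold changes, p-values and q-values, which were not used. Whole reads were recovered for 100% of 207737 values above 0 (tolerance 0.01 of a read up to 20 FPKM, 0.06 up to 500 and 0.1 above).

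Groups follow the deposited labels. Genes with at least 1 FPKM in 3 libraries (2 in the Piezo1 experiment) were tested on log2(FPKM + 1) by limma-trend (limma 3.58.1, R 4.3.3, robust), using the libraries of each comparison, with Benjamini-Hochberg adjustment. Calls needed an adjusted p below 0.05 and a log2 change above 1 (0.5 in whole lung). Alternatives included edgeR 4.0.16 and DESeq2 1.42.0 on recovered reads. The members and lists were chosen with earlier results of these data known. Per list and comparison, at most 4 called genes with the largest change and a mean of at least 5 FPKM in the higher group were to be named, and the 10 genes most like Cd74. Named after their values were seen, outside this rule, are Cd83 in the tissue experiment, Rfx5, Pdcd1lg2, Aqp5, list genes that were not called or that only an alternative called, and single cell type markers. The tests were tested on simulated data with 200 changed genes. A count of 0 allows 3 reads, for counting error only. Python 3.11.15, scipy 1.17.1 and matplotlib 3.10.9 made tables and figures. Some genes that this rule names are not reported here.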

Additional observations from a re-analysis of the deposited data

Results flagged for a closer look

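The difference of the Piezo1-cKO minus WT effects between lung and PB was -0.45 ± 0.12 (log2 scale) for H2-Eb1, past the adjusted p of 0.05 in limma's interaction term. The effect was -0.05 in lung and 0.40 in PB, where the gene had 0 and 3 reads in WT and 6 and 10 in Piezo1-cKO. Without WT lung replicate 2 or Piezo1-cKO lung replicate 1 it was -0.40 and not called.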

How the results depend on the processing

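The same 4 members were called higher in lung than in PB, in both experiments, under every scaling, pseudocount, filter and count test tried. Leaving out 1 library gave 1 to 4 called members for lung against PB in the tissue experiment, 1 to 4 for PB against BM and 1 to 4 for WT lung against PB in the Piezo1 experiment. The 1 is Cd74, left when any lung library (or, for PB against BM, any BM library) is dropped, because the filter then has too few libraries to keep the chains. For Piezo1-cKO against WT lung, 3 members passed on the adjusted p alone, as did 50.7% of all genes. H2-Eb1 there ranged from -0.10 to 0.00032 without 1 library.
For the difference of genotype effects, called members were 2 without the filter (H2-DMa and H2-Eb1), 2 after median-ratio rescaling and 2 with a replicate block (H2-Aa and H2-Eb1 in both), 0 with a fold threshold, 2 with edgeR TMM and 2 with edgeR RLE (H2-Ab1 and H2-Eb1), and 0 to 2 without 1 library, with 0 without WT lung replicate 2 or Piezo1-cKO lung replicate 1. Calls were common among all genes too. Without the filter 3634 of 17527 genes were called higher and 1875 lower. Of 7560 genes, 1773 and 1869 were after rescaling, 2253 and 1408 with the block, and 324 and 194 with the fold threshold. With edgeR TMM they were 2152 and 1803, and with RLE 2017 and 1942. H2-Aa turned to 0.74 with a pseudocount of 0.1, 3.42 with edgeR TMM, 3.39 with edgeR RLE and 2.83 with DESeq2. Cd74 turned to -0.0570 after rescaling, -0.0353 with TMM, -0.0643 with RLE and -0.0645 with DESeq2, and H2-Ab1 to -0.13 after rescaling, with a range of -0.11 to 0.21 without 1 library. The cause was not tested.
In whole lung, leaving out 1 library gave -0.0384 to 0.13 for H2-Aa, -0.13 to 0.19 for H2-DMa and -0.13 to 0.0175 for H2-Eb1, and 0 members were called throughout. Same-numbered libraries did not deviate together (correlations from -0.105 to 0.119). With so few libraries per group this cannot exclude that they came from the same mouse. The labels give no pairs, so the numbers were not read as pairs, and the block changed no other count of called members. Count tests were not run for whole lung, where reads were not recovered. Values of a few reads limit H2-DMa, H2-DMb1 and Ciita in sorted cells and all chains in PB.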
